A study of Drosophila melanogaster with 2 samples.

Results

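Binding of tx (taxi, also called delilah), a protein of the basic helix-loop-helix (bHLH) family of transcription factors, was examined at 8 genes of insulin and TOR signalling: InR, chico, Pi3K92E, foxo, Thor, Lk6, S6k and Tor. They are 8 of the 13945 protein-coding genes annotated on the 6 main chromosome arms of Drosophila melanogaster. They were selected by name from a list made with the peaks of these data known, and Lk6 was put on it beside the strongest peaks of the series. Their peaks are therefore described and not tested, and the peaks used to choose them support nothing here. The chromatin came from whole embryos of both sexes, collected between 0 and 24 h of age, of a stable transgenic line whose tx protein carries eGFP at its C terminus. It was sonicated to 200 to 800 bp and precipitated with an antibody to GFP. The 2 samples are biological replicates of this 1 group, and both sets of peaks were called against the same control, per the text deposited with the lists. Whole embryos mix all cell types, so a peak cannot be placed in any one of them, and no precipitate from embryos without the tagged protein was analysed here.

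Insulin-like peptides bind the receptor tyrosine kinase InR. The receptor recruits the substrate protein chico and the lipid kinase Pi3K92E, and the resulting phospholipid activates the kinase Akt, which keeps the forkhead factor foxo out of the nucleus. Akt signalling also raises the activity of the kinase Tor, which phosphorylates S6k, a kinase of ribosomal protein S6, and Thor, the fly 4E-BP that holds the cap-binding protein eIF4E inactive. Lk6 is the fly counterpart of the mammalian Mnk kinases and phosphorylates eIF4E. In flies the pathway couples feeding to growth, and when insulin signalling is low foxo is known to activate Thor and InR.

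A summit is the base at which the authors placed the maximum of a peak. The authors deposited a relaxed list of 30000 peaks for each replicate and for the pooled replicates, and an optimal set of 3102 peaks chosen by the irreproducible discovery rate (IDR). Ranks were taken by the authors' signal value within each list, rank 1 being the strongest. Signals of different lists were not compared by size, and read depth is unknown. Positions are on dm6 and distances are to transcription start sites (TSSs) of protein-coding transcripts.

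The genomic sequence around 6 of the optimal IDR summits shows what lay under the peaks that the results below turn on. The sequences are read from the Release 6 genome, whose coordinates are those of dm6, on the plus strand, 5′ to 3′, with 100 bases either side of the Lk6 summit and 50 bases either side of the others. Capitals mark every match, on either strand, to CANNTG, the E-box to which bHLH proteins bind, or to GTAAACA, a forkhead core. The searches for CACGTG and CACATG overlap that for CANNTG, and TATCGATA, the DNA replication-related element, was also searched.
Lk6, chr3R:11760942-11761142: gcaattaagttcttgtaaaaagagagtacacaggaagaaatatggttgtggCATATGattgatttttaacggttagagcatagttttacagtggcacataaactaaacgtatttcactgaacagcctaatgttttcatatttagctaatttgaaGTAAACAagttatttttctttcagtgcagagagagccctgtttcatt
InR intron, chr3R:21590794-21590894: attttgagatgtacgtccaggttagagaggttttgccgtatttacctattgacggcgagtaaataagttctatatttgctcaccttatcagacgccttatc
InR coding exon, chr3R:21580216-21580316: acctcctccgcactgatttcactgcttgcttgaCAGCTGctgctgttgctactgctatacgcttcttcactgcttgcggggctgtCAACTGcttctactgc
foxo distal, chr3R:14052261-14052361: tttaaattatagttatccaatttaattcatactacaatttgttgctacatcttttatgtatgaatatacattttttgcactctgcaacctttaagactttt
foxo proximal, chr3R:14053578-14053678: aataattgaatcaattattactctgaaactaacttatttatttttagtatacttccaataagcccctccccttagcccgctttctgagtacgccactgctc
Tor, chr2L:13004155-13004255: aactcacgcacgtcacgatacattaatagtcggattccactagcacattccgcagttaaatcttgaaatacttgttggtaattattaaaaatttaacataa

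Within 50 bp of the summit a CANNTG stood in 3 of the 13 optimal IDR windows of the 8 genes (23.1%), against 38.0% of all 3102 windows of the same width. The matches were CATATG at Lk6, beginning 49 bp to the left of the summit, CAGTTG at Pi3K92E, and CAGCTG and CAACTG in the InR coding exon. None of the 13 windows held the E-box CACGTG, found in 1.23% of all windows, or its variant CACATG, found in 3.77%, but within 100 bp each stood in 1 of the 13, against 2.35% and 8.06% of all. The replication-related element and the forkhead core were absent from the 13 narrow windows too, and stood in 2.64% and 3.61% of all windows. In windows of 100 bp either side the E-box share turned round, with 9 of 13 (69.2%) against 63.8%. In that wider window GTAAACA began 54 bp to the right of the Lk6 summit and occurred in 2 of 13 windows, against 6.38% of all. The 13 narrow windows had a mean GC content of 37.2% ± 8.51 (SD), against 36.2% ± 8.71 (SD) over all 3102. A matching string is a description of the DNA and not evidence of a bound factor.

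Of the 8 genes, 5 had an optimal IDR summit within 1000 bp of a TSS: InR, Pi3K92E, Thor, Lk6 and Tor. Over all protein-coding genes this share was 18.9%. A summit in the gene body or the 5 kb on either side, the wider rule used here, was present at 6 genes, the same 5 and foxo, against 41.1% of all genes. A summit in that window but none near a TSS of the gene was thus found at 1 of the 8, foxo, against 22.2% of all genes. The windows held 13 optimal IDR summits in all, 5 at InR, 3 at foxo, 2 at Thor, 1 each at Pi3K92E, Lk6 and Tor, and 0 at chico and S6k. Because these genes were selected with such peaks in view, nothing is read from the counts against the background. The pooled relaxed list held 109 summits in the 8 windows, that of replicate 1 121 and that of replicate 2 79, and these may include background.

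**Figure D1:**
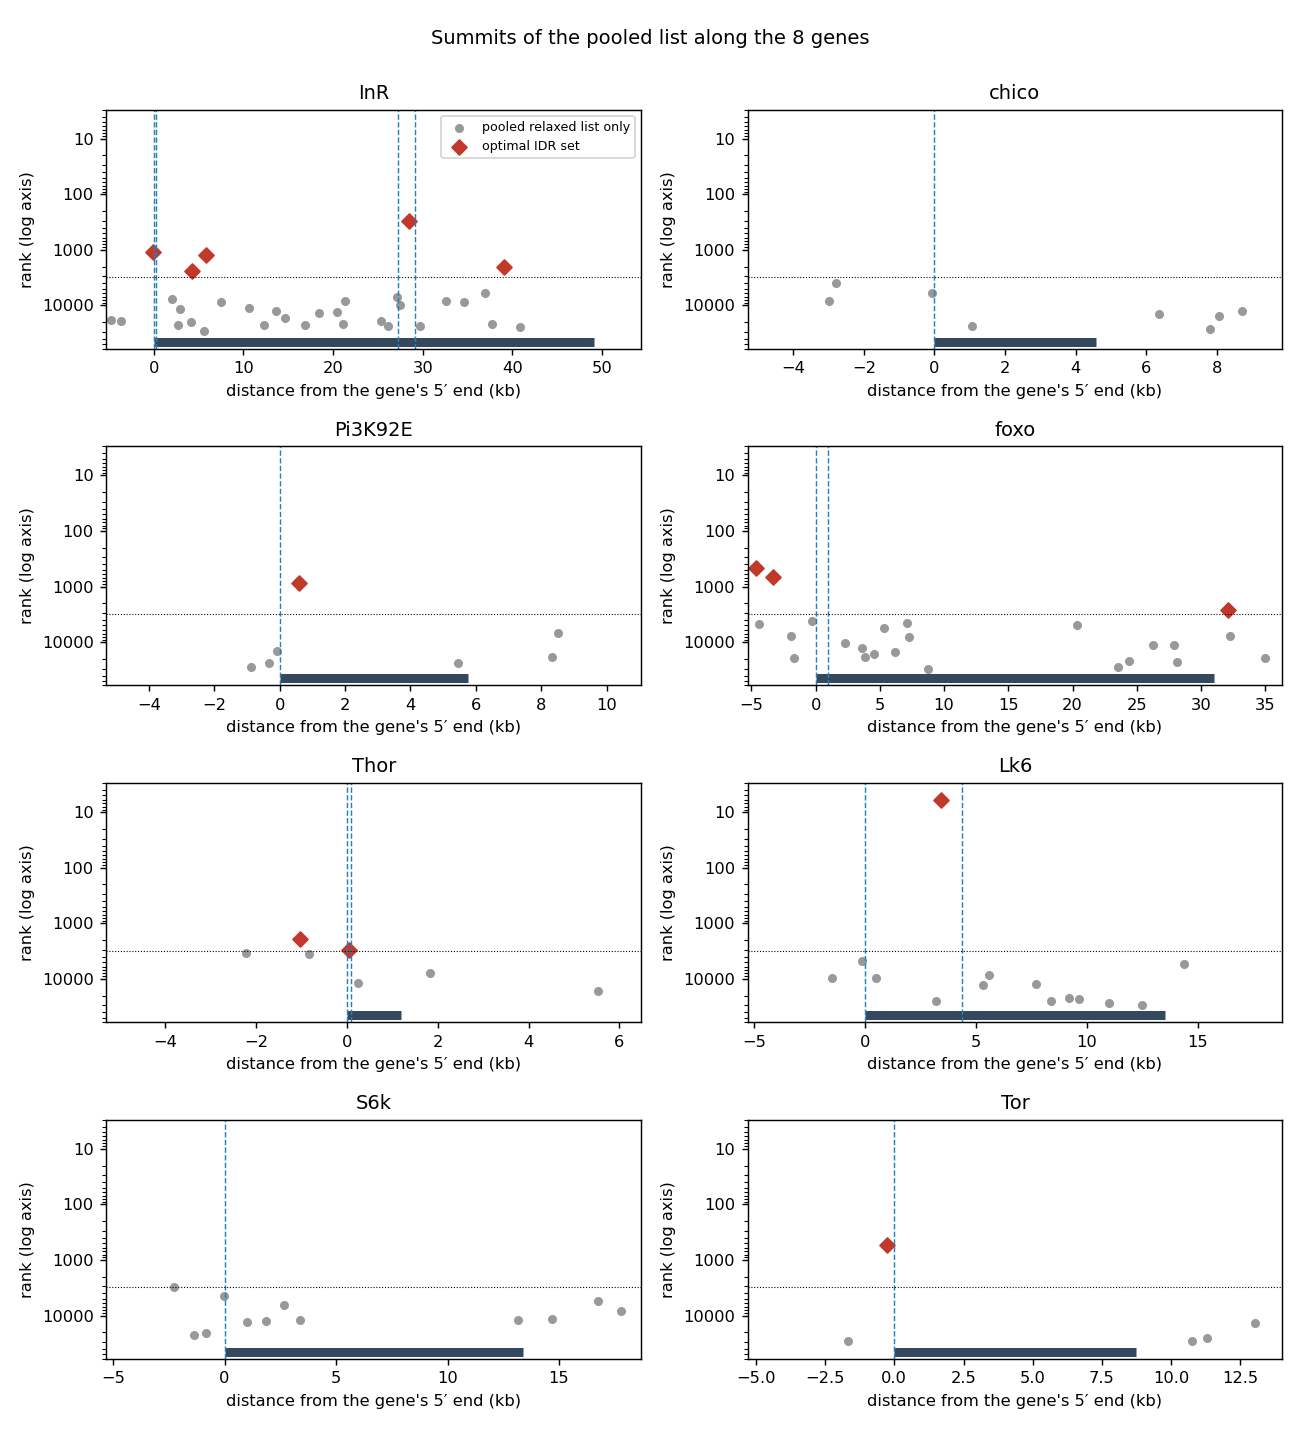
Summits of the pooled list along the 8 genes, by distance from the gene's 5′ end (kb, in the direction of transcription) and rank (log axis, strongest at the top). Diamonds are optimal IDR summits and grey points are in the relaxed list only, the bar is the gene body, dashed lines are TSSs and the dotted line is rank 3102. The Lk6 summit of rank 6 stands far above every other summit shown, and InR has 5 diamonds spread over its length.

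By place, 7 of the 13 summits lay within 1000 bp of a TSS of some gene, 2 in introns, 2 between genes, 1 in a coding exon and 1 in an exon of a noncoding RNA. Each summit was put in 1 class only, within 1000 bp of a TSS first, then UTR, then coding exon. The class near a TSS thus also takes summits that lie in exons. Among all optimal IDR summits 64.9% were of this class. Coding exons away from any TSS, and outside UTRs, held 0.226%, or 7 summits. How many summits near a TSS also lay in coding exons was not counted. The weakest optimal summit of the group was at Thor, with rank 3035 and signal 59.4. The strongest pooled summit of the 8 windows outside the optimal set was in the S6k window, with rank 3127 and signal 58.1.

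The receptor gene InR carried the most summits. It spans chr3R:21570248-21619321 on the minus strand (FBgn0283499), and its 4 TSSs fall in a pair at the 5′ end, 285 bp apart, and a pair 27200 and 29130 bp into the gene. The strongest summit, rank 299 with signal 214, lay in an intron 653 bp upstream of the innermost TSS. It ranked 177 in replicate 1 and 1700 in replicate 2. The summit at the 5′ end lay 46 bp upstream of the first TSS, with rank 1103 in the optimal set, 795 in replicate 1 and 5416 in replicate 2. A stronger replicate 2 summit, rank 4329, lay 90 bp downstream of that TSS, more than 100 bp from the optimal one. Both optimal IDR summits near start sites were thus ranked lower in replicate 2 than in replicate 1.

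The other 3 InR summits lay away from protein-coding start sites. Those at 4312 and 5794 bp from the 5′ end, in the first part of the gene, had ranks 2360 and 1221. The first ranked 2415 in replicate 1 and 2471 in replicate 2. An exon of a noncoding RNA gene lay within 50 bp of it, and its distance to noncoding start sites was not measured. The second ranked 588 in replicate 1 and had no replicate 2 summit within 100 bp. The fifth lay in a coding exon, 39055 bp from the 5′ end, in the sequence printed above, whose GC content of 53.5% was matched or undercut by 96.6% of optimal IDR windows. It had rank 2027, rank 1542 in replicate 1 and only 26966 in replicate 2. All 5 InR summits were thus among the 3102 strongest peaks of replicate 1, and 2 of them were among those of replicate 2.

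Genes between 0.8 times the length of InR and its length divided by 0.8 gave its summit count a scale. InR held 5 optimal IDR summits, against a median of 1 among 246 such genes, of which 3.25% held as many or more. The pooled list gave 32 against a median of 11 (2.85% with as many), replicate 1 gave 41 against 10 (1.22%) and replicate 2 gave 23 against 13 (4.88%). InR stood above the 95th percentile of its length class in each of these lists. Some neighbouring peaks of the relaxed lists overlap at InR, and each summit was counted separately there and at the genes of like length. For the strongest InR summit the replicates diverged, since 4.47% of like-length genes had the same or a better best rank in replicate 1 and 37.8% in replicate 2.

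**Figure D2:**
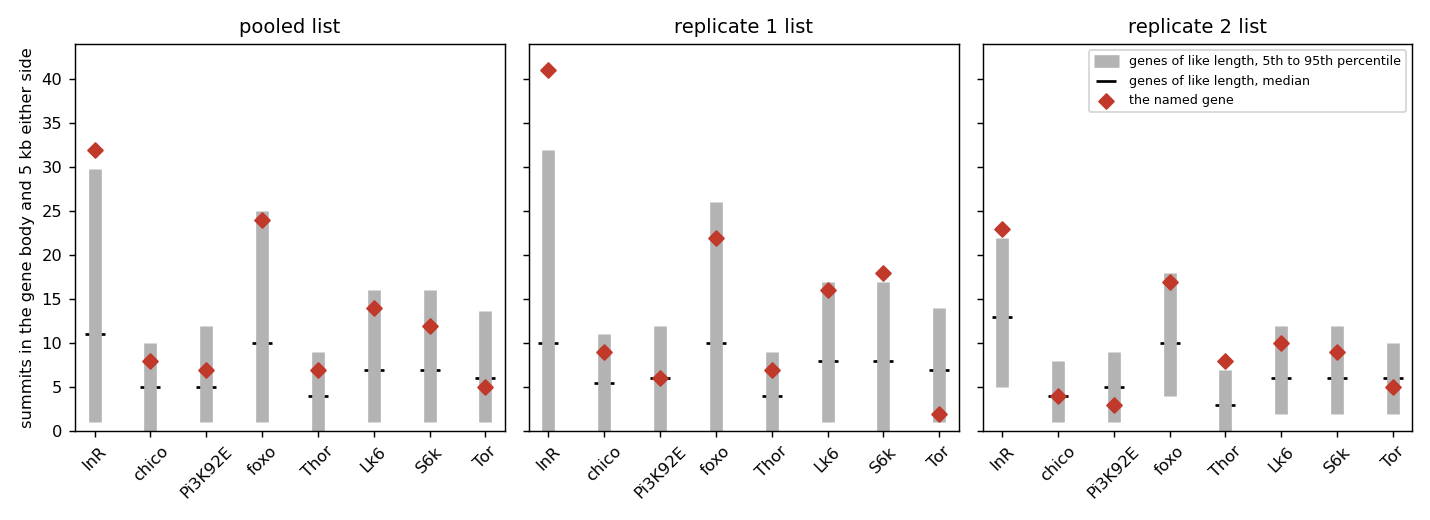
Number of summits in the gene body and 5 kb either side in the pooled, replicate 1 and replicate 2 lists. Diamonds are the named genes, and bars and dashes give the 5th to 95th percentile and the median of genes of like length. InR lies above its bar in all 3 panels, S6k only in replicate 1 and Thor only in replicate 2.

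At chico, the insulin receptor substrate gene (FBgn0024248, chr2L:10242512-10247078, minus strand), no optimal IDR summit was found. The best summit at its own TSS, 62 bp upstream, ranked 5866 in the pooled list. In replicate 1 a summit 46 bp upstream ranked 3994, and in replicate 2 no summit lay within 1000 bp of the TSS. The strongest pooled summit of the window, rank 3994, lay 129 bp from the TSS of the neighbouring gene bsk, which encodes the kinase JNK. Its 8 pooled summits, against a median of 5, were matched or exceeded by 24.7% of 1408 genes of like length, and its 4 in replicate 2 by 65.8%. No summit of the chico window was among the 3102 strongest of the pooled list or of either replicate.

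Pi3K92E, the gene for the catalytic subunit of the class I lipid kinase (FBgn0015279, chr3R:20628972-20634732, minus strand), had 1 optimal IDR summit, 595 bp downstream of its only TSS in the 5′ UTR. It ranked 878 with signal 127. The replicates placed it almost at the same base, 1 bp and 13 bp from the optimal summit, with ranks 1053 and 1190. Of the 2014 promoter summits of the optimal set 9.04% lay at least as far from a TSS, the median being 121 bp. The next summit of its window ranked only 6866 and lay in a coding exon of H, the Notch pathway corepressor Hairless.

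Tor, listed as mTor in the annotation (FBgn0021796, chr2L:13004480-13013197, plus strand), had 1 optimal IDR summit, 275 bp upstream of its TSS, with rank 530 and signal 163. The same summit lay 98 bp from the TSS of Vha68-1, which encodes a subunit of the vacuolar proton pump and is the nearer gene. It ranked 687 in replicate 1, with signal 102, and 298 in replicate 2, with signal 66.0. Few other summits surrounded it: the pooled window held 5, against a median of 6, and 70.1% of 788 like-length genes held as many. The strongest summit had 7.76 times the signal of the second in the pooled list, 9.56 times in replicate 1 and 4.64 times in replicate 2. Among like-length genes with at least 2 summits the median ratio was 1.61, 1.59 and 1.42 in these lists, and 2.45%, 1.39% and 6.41% had a ratio as large as that of Tor. Which of the 2 genes the peak bears on was not tested.

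S6k, which lies downstream of Tor (FBgn0283472, chr3L:5797549-5810931, minus strand), had no optimal IDR summit. At its TSS, which it shares at close range with the gene kri, a summit 28 bp upstream ranked 4507 in the pooled list and was 14 bp from the TSS of kri. It ranked 4869 in replicate 1. In replicate 2 a summit 20 bp upstream ranked 7529, and a stronger one, 812 bp upstream and in a coding exon of kri, ranked 3905. The strongest pooled summit of the window, rank 3127, lay 108 bp from the TSS of mad2, the spindle checkpoint gene, and the replicate 1 summit there ranked 2687. S6k held 18 summits in replicate 1, against a median of 8, as many as 4.75% of 610 like-length genes, whereas in replicate 2 its 9 were matched by 24.8%.

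Thor, the translational brake encoded by a gene of 1179 bp (FBgn0261560, chr2L:3478434-3479612, plus strand), had 2 optimal IDR summits. One lay at the start of the gene, 47 bp downstream of the first TSS and 41 bp upstream of the second, with rank 3035, rank 2773 in replicate 1 and rank 7610 in replicate 2. The other lay 1035 bp upstream of the first TSS, in an exon of the noncoding RNA gene CR43928, with rank 1941 and rank 2205 in replicate 1. Replicate 2 had no summit within 100 bp of it, but a summit 927 bp upstream of the TSS had rank 1993 there. Both replicates thus held a summit of similar rank upstream of Thor, at different bases. A further summit 2216 bp upstream ranked 3491 in the pooled list, 3442 in replicate 1 and 3420 in replicate 2, just below the IDR set. Thor held 8 summits in replicate 2, against a median of 3, as many as 2.89% of 2248 genes of like length, and 7 in replicate 1, against a median of 4, as many as 21.1%.

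Lk6, the eIF4E kinase gene (FBgn0017581, chr3R:11750931-11764457, minus strand), had the strongest peak of the group by a wide margin. Its 1 optimal IDR summit had rank 6 and signal 968.5, which was 65.8% of the highest signal in the pooled list. It ranked 6 in replicate 1, with signal 673, and 10 in replicate 2, with signal 292, at 15 and 12 bp from the optimal summit, and had 67.3% and 55.6% of the highest signal in those lists. Rank and place were thus nearly the same in both replicates. The peak was not at the 5′ end of the gene: it lay 3415 bp downstream of the first TSS, in an intron of the longer transcript, and 963 bp upstream of the TSS of the shorter one. Only 12 of the 2014 promoter summits (0.596%) lay at least as far from the nearest TSS, so the peak counts as a promoter peak only by the width of the 1000 bp rule.

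The other summits of the Lk6 window were much weaker. At the 5′ TSS a summit 121 bp upstream had rank 4833 in the pooled list, and the nearest summits there ranked 5382 in replicate 1, 39 bp upstream, and 2858 in replicate 2, 253 bp upstream. The strongest Lk6 summit had 22.8 times the signal of the second strongest in the pooled list, 22.3 times in replicate 1 and 16.3 times in replicate 2. Among like-length genes with at least 2 summits the median ratio was 1.57, 1.52 and 1.39 in these lists. A ratio as large was found at 0.176% of 569 such genes in the pooled list, 0.181% of 554 in replicate 1 and 0.507% of 592 in replicate 2. The number of summits was less unusual, with 14 in the pooled list against a median of 7, as many as 12.0% of 607 like-length genes. The Lk6 window thus held 1 very strong summit among many weak ones, in the pooled list and in each replicate.

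By the strongest summit in the gene body and 5 kb either side, 2 of the 607 genes of like length (0.329%) had the same or a better rank than Lk6 in the pooled list. One was slif, an amino acid transporter gene, with a summit of rank 5, and the other was the gene l(3)neo38, whose window holds the Lk6 summit itself. In replicate 1 l(3)neo38 alone did so, and in replicate 2 4 genes did (0.659%), these same genes with ph-p and Atat. Within 1000 bp of a TSS 157 of the 607 genes had an optimal IDR summit, and none of those summits ranked above that of Lk6. The next below were ph-p, a Polycomb group gene, with rank 12, Atat, which encodes an alpha-tubulin acetyltransferase, with rank 13, and amon, a prohormone convertase gene, with rank 44.

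**Figure D3:**
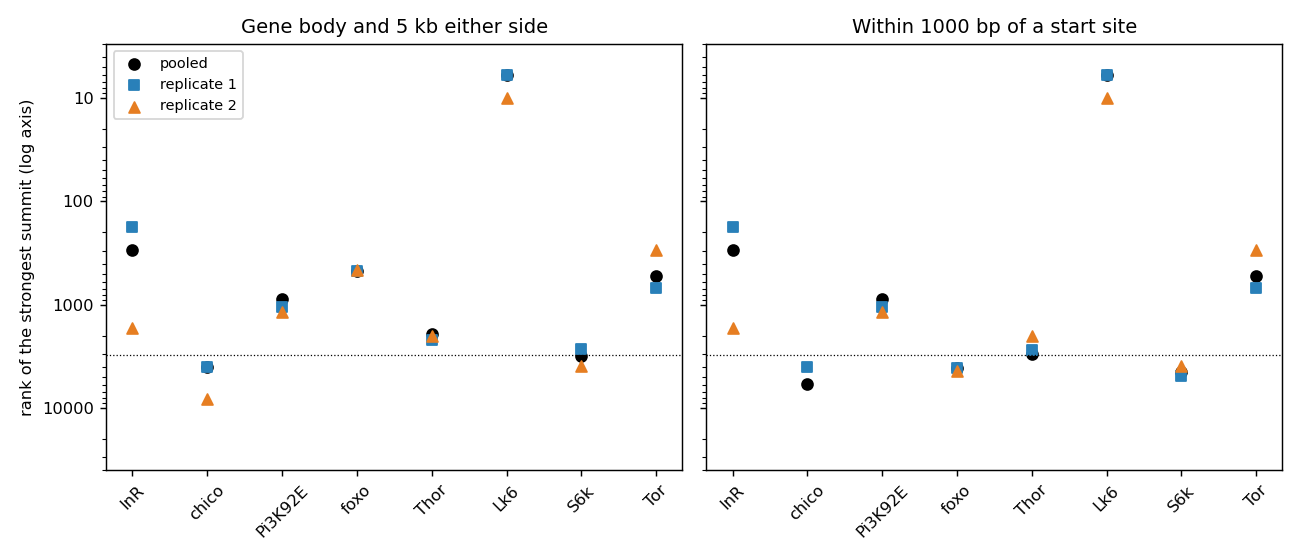
Rank of the strongest summit (log axis, strongest at the top) in the gene body and 5 kb either side (left) and within 1000 bp of a TSS (right), for the pooled list and each replicate. The dotted line is rank 3102. Lk6 lies between ranks 6 and 10, foxo lies between 462 and 476 on the left and between 4072 and 4352 on the right, and InR shows the widest gap between the replicates among the genes above the line.

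At foxo, the transcription factor gene at the end of the insulin branch (FBgn0038197, chr3R:14056945-14087978, plus strand), the strong summits lay away from the promoter. A pair of optimal IDR summits stood between genes, 4634 and 3317 bp upstream of the first TSS and 1317 bp from each other. The distal one had rank 468 with signal 173, rank 476 in replicate 1 and rank 484 in replicate 2. The proximal one had rank 660 with signal 147, rank 849 in replicate 1 and rank 462 in replicate 2. Both were found at similar ranks in both replicates, and foxo was the gene with the nearest TSS to each. The distal window was AT-rich, with 23.8% GC, at or below which lay 5.93% of all optimal IDR windows, while the proximal one had 36.6%.

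The promoter of foxo itself was below the IDR set. A summit 247 bp upstream of the first TSS ranked 4086 in the pooled list, with replicate 1 giving rank 4072 at 218 bp and replicate 2 rank 4352 at 442 bp. The remaining optimal IDR summit, rank 2638, lay beyond the 3′ end, 497 bp from the TSS of Npc2b, a gene of the sterol-binding NPC2 family, and far from any TSS of foxo. Replicate 2 also had a summit of rank 2371 in an intron, 4616 bp from the 5′ end, with no optimal IDR summit within 100 bp. In the pooled list foxo held 24 summits, against a median of 10, as many as 7.14% of 336 genes of like length. The share was 11.3% in replicate 1 and 9.52% in replicate 2.

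The replicates were compared over all 13 optimal IDR summits of the 8 genes. All 13 had a replicate 1 summit within 100 bp, and each ranked among the 3102 strongest there. In replicate 2, 11 had a summit within 100 bp, and 7 of these were among the 3102 strongest. The shares over all optimal IDR summits were 87.6% in the top of replicate 1, 74.9% in the top of replicate 2 and 65.2% in both, against 100%, 53.8% and 53.8% for the 13. By this 100 bp match the summits missing from the top of replicate 2 were 3 of InR, both of Thor and the one of foxo near Npc2b. The upstream Thor summit had a replicate 2 summit of rank 1993 just beyond 100 bp. The number found in both replicate lists depended on the match. It was 8 within 50 bp, 11 within 100 bp, 12 within 200 bp and 13 where peaks overlapped by 1 base. Those of Lk6, Tor and Pi3K92E and the upstream pair of foxo were among the 3102 strongest in both. With each replicate's own 3102 strongest peaks the same 5 genes had a summit within 1000 bp of a TSS, against 18.7% of all protein-coding genes in replicate 1 and 18.1% in replicate 2. Thor entered in replicate 2 through the summit 927 bp upstream, not through its optimal promoter summit. With a summit among the 3102 strongest of both replicates required, 4 genes remained, without Thor, against 13.1% of all protein-coding genes.

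**Figure D4:**
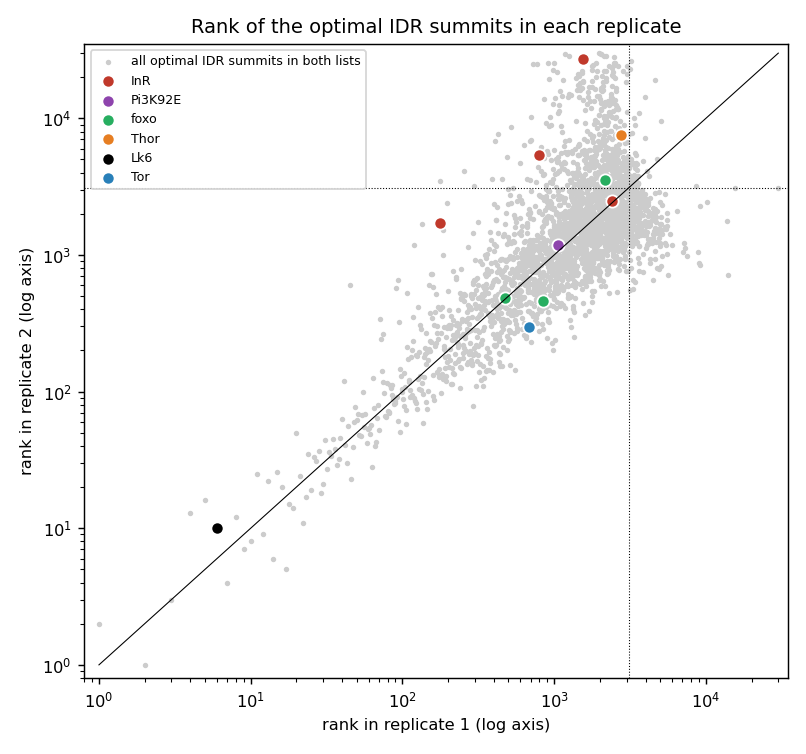
Rank in replicate 1 (x) and replicate 2 (y) of optimal IDR summits with a summit within 100 bp in both lists, on log axes. Coloured points are the 11 summits of the 8 genes, grey points are all 2822 such summits, the solid line marks equal ranks and the dotted lines rank 3102. Lk6 lies among the strongest peaks of both lists, and 4 of the InR points are shown, all on the side of weaker rank in replicate 2.

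The other genes of the pathway were described from a list of 58, grouped by role. Of these 18 had an optimal IDR summit within 1000 bp of a TSS (31.0%), against 18.9% of all protein-coding genes. Among the ligands and secreted binding proteins there were 0 of 10, among adaptors at the receptor 2 of 3, in the PI3K, Akt and TSC group 4 of 8, among TOR complex genes 2 of 5, among genes of amino acid and energy sensing 6 of 18 and among outputs 4 of 14. Genes with several TSSs have more promoter DNA, and the part of this in the shares was not tested.

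Near the receptor, the adaptor gene dock had a promoter summit of rank 1655, and step, a cytohesin gene, one of rank 2435. In the PI3K group Pi3K21B, which encodes the adaptor subunit of the kinase whose catalytic subunit is Pi3K92E, had rank 315, 25 bp from its TSS. The adaptor gene melt had rank 581 and Rheb, the GTPase that activates Tor, rank 2097. Both subunits of the lipid kinase thus carried an optimal IDR promoter summit.

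Around Tor the summits were at PRAS40 (rank 472, 869 bp from its TSS), which encodes an inhibitor of the complex, and Sin1 (rank 1653), a subunit of its second complex. The strongest promoter summits of the list were at energy and stress sensors, with alc, the beta subunit of AMP-activated kinase, at rank 60 and Sesn, the fly sestrin, at rank 61. The alc summit lay 936 bp from its TSS and nearer, at 213 bp, to that of CG8788. The Sesn summit lay 210 bp from its own TSS and ranked 41 in replicate 1 and 119 in replicate 2. SNF4Agamma, the gamma subunit of that kinase, had rank 681, Wdr24 rank 1234, Nup44A rank 2949 and Lkb1, the kinase that activates it, rank 3073. Of the outputs, REPTOR, a transcription factor restrained by Tor, had rank 193, Atg17 rank 362, eIF4EHP, a cap-binding repressor, rank 936 and eIF4A, the helicase partner of eIF4E, rank 2970. The Atg17 summit lay nearer to the TSS of Xe7, at 89 bp. Of the 18 summits 11 were among the 3102 strongest in both replicates, against 65.2% of all optimal IDR summits. Those of dock, step, eIF4EHP and eIF4A had no replicate 2 summit within 100 bp, as was the case for 231 of all 3102.

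**Figure D5:**
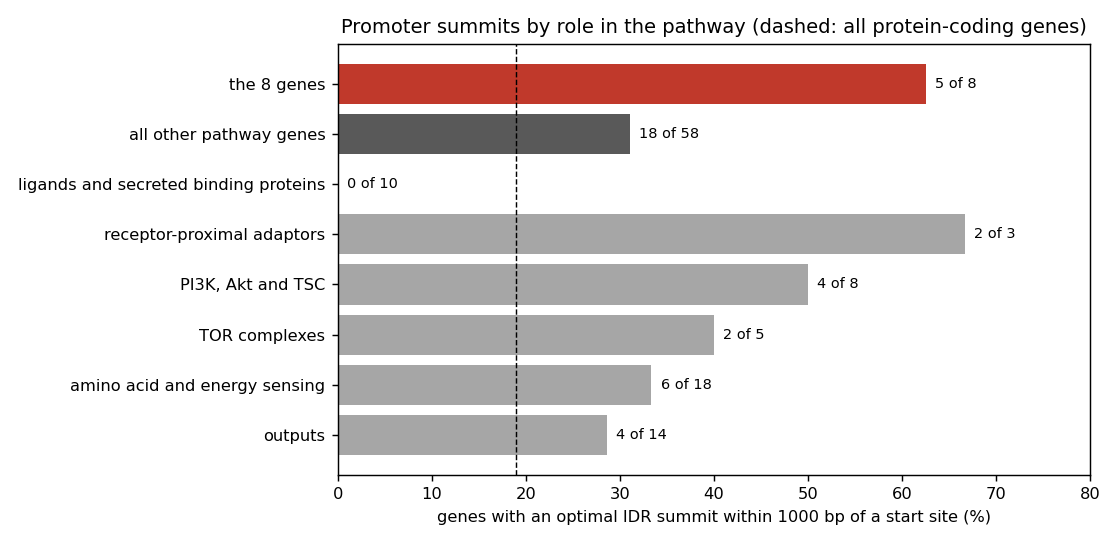
Percent of genes with an optimal IDR summit within 1000 bp of a TSS, for the 8 genes, for all 58 other pathway genes and for these by role, with counts beside the bars. The dashed line is the share of all protein-coding genes, 18.9%, and the ligand group has 0 of 10.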

How the data were processed

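ChIP-seq peaks of eGFP-tagged tx were available for 2 biological replicates of whole embryos. Per the file headers and the text deposited with the lists, the authors made dm6 peak lists for each replicate and for the pooled replicates against 1 shared control, and an optimal IDR set. The deposited signal value is the authors' own. The sources used here name no aligner, peak caller or IDR threshold. The 3102 optimal IDR peaks were identical to the top 3102 of the pooled list. The dm3 lists were not used. Since no reads or coverage were used, depth per sample is unknown and no counting interval is given.

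A summit was column 2 plus column 10, written 1-based. Genes and TSSs came from Ensembl release 115 (BDGP6.54), sequence from the RefSeq copy of Release 6. All 58 other pathway genes matched by symbol, and Tor was found as mTor. Genes of like length were protein-coding genes of 6 arms between 0.8 times the length and the length divided by 0.8. Summits of different lists were matched within 100 bp. Motifs were searched on both strands. No test was run, because the 8 genes and the lists were chosen with earlier results of these data known. The genes named are all 8, the other pathway genes with a promoter summit (1 of them, included in the counts, is not reported here), genes with the nearest TSS to a summit described, and 3 genes next to Lk6 in rank among genes of like length by best promoter summit (none ranked above it by that measure). The genes slif, l(3)neo38, bsk, mad2, kri and H were named after their values were seen. The counting functions were tested on simulated data. Python 3.11.15, numpy 2.4.6, pandas 2.3.3 and matplotlib 3.10.9 were used.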

Additional observations from a re-analysis of the deposited data

How the results depend on the processing

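Of 37 alternative values of the counts, 6 differed from the value reported by more than 1.5 times. They follow with related values, and their causes are given only where the construction shows them. Within 500 bp of a TSS 3 of the 8 genes had an optimal IDR summit in place of 5, since Lk6 and Pi3K92E lie at 963 and 595 bp. With the 5′ end of the gene as the only TSS the count was 4, without Lk6. The share of all protein-coding genes fell too, from 18.9% to 16.5% within 500 bp and to 17.3% by the 5′ end alone. The 13 optimal IDR summits of the 8 windows became 7 in gene bodies alone, 8 among the 1551 strongest peaks and 7 when a summit among the 3102 strongest of both replicates was required. Among the 1551 strongest peaks 11 other pathway genes had a promoter summit in place of 18, while the share of all protein-coding genes was 10.6% in place of 18.9%. Within 100 bp of the summit 9 of 13 windows held a CANNTG in place of 3. With 1 replicate alone the counts ran from 5 to 5 genes with a promoter summit, from 6 to 7 genes with a summit in the window, from 12 to 14 summits, and from 17 to 18 other pathway genes. Without replicate 2, S6k joined the genes with a summit, through the peak at mad2. Of all 69 alternative values 14 differed by more than 1.5 times, the rest of them shares of like-length genes with as many summits. For InR, a closer match of length gave 1.79% in place of 2.85%, and 1 replicate alone gave 1.22% to 4.88%. Replicate 2 alone gave 65.8% for chico in place of 24.7% and 84.0% for Pi3K92E in place of 38.7%. It gave 2.89% for Thor in place of 18.5%. Replicate 1 alone gave 11.3% for foxo in place of 7.14% and 4.75% for S6k in place of 19.5%. The other replicate alone stayed within 1.5 times. It gave 19.6% for chico, 53.5% for Pi3K92E, 21.1% for Thor, 9.52% for foxo and 24.8% for S6k. The cause of these shifts was not tested. No paired analysis was possible because there is 1 group. Ranks below the IDR set rest on weak peaks of unknown depth, so the absence of a summit at chico and S6k there is not absence of binding.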

Other observations

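A further 19 of the 58 other pathway genes (32.8%) had no optimal IDR summit within 1000 bp of a TSS but did have one in the gene body or the 5 kb either side, against 22.2% of all protein-coding genes. With those at promoters this made 37 of 58 (63.8%), against 41.1% of all. At 14 of the 19 the TSS nearest to the strongest such summit belonged to another gene, and these genes were named after their values were seen. No share over all protein-coding genes stands beside this count, so nothing is read from it. The summit of rank 5 in the window of slif, an amino acid transporter gene, lay 91 bp from the TSS of Chro and 2152 bp from that of slif. That of rank 202 near mio lay 248 bp from the TSS of papi.

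At 5 genes the nearest TSS was the gene's own. ImpL2, which encodes a secreted protein that binds insulin-like peptides, had an intronic summit of rank 183, 1096 bp from its TSS and so just outside the promoter rule. The growth inhibitor gene chrb had one of rank 2052 at 1196 bp and Atg1, the autophagy kinase gene, one of rank 2356 at 1323 bp. Myc had an intronic summit of rank 823 at 8768 bp, and scyl a summit of rank 1469 at 8092 bp, beyond the gene.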
